A study of Mus musculus with 2 samples.

Results

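Vascular smooth muscle cells, the contractile cells of artery and vein walls, were compared between injured and uninjured soft tissue behind the mouse tibia. There were 2 droplet single-cell RNA libraries, 1 from the injured limb taken 7 days after a burn combined with cutting of the Achilles tendon, and 1 from the opposite, uninjured limb. Mice of both groups carried Hoxa11 wt/CreERT2, a tamoxifen-dependent Cre made from the Hoxa11 locus. They also carried R26 wt/LSL-rtTA, a tetracycline-responsive activator that Cre switches on in cells with a history of Hoxa11 expression. The responder was TetO-Vegfd, a Vegfd transgene that the activator can drive. Male and female mice were 8 to 12 weeks old at injury, with 5 mice stated per group. How many mice went into each library, and whether tamoxifen and doxycycline were given, are details not given in the sources used here. The uninjured limb also carried the burn/tenotomy label, so it is not tissue of untreated mice, and mice lacking the transgene were not analysed here. In the smooth muscle cells Vegfd had 20.2 CPM in the injured library, against 11.6 CPM in the uninjured library, in units of UMIs (molecules counted once) per 1000000 UMIs of the cells summed (CPM). Of the injured Vegfd UMIs 31.25% lay in 1 cell. With cells thinned to equal depth, Vegfd was seen in 6.83% of injured and 6.80% of uninjured smooth muscle cells. In injured and uninjured leukocytes Vegfd had 19.3 and 0.868 CPM, so the injured smooth muscle level was near that of injured leukocytes. Mesenchymal cells had 212 CPM in the injured library and 49.6 CPM in the uninjured library. In the smooth muscle cells Hoxa11 had 4.79 CPM in the injured library, against 12.9 CPM in the uninjured library.

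A barcode was kept as a cell if it had at least 500 genes and at most 10% of its UMIs from mitochondrial genes. It was called smooth muscle if Myh11 and Cnn1 together reached 5 UMIs per 10000 UMIs of the cell (cp10k) and Acta2 reached 5 UMIs. It also had to hold at most 1 UMI of Pecam1 and Cdh5 together, at most 1 UMI of Ptprc, and under 200 cp10k of Col1a1, Col1a2 and Col3a1 together. These thresholds gave 325 smooth muscle cells of 14126 kept cells, 171 of 9366 in the injured library and 154 of 4760 in the uninjured library. The cells were thus chosen by measured levels of these genes, whose values are given as a description. With a single library for each limb, differences between limbs could not be tested. Intervals are 95% intervals from exact methods and reflect counting error alone, not variation between mice.

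Smooth muscle cells narrow vessels when myosin slides along actin, after calcium enters through voltage-gated channels or leaves internal stores and myosin light chain is phosphorylated. Their contractile genes are known targets of serum response factor (SRF) with its partner myocardin, which act at a DNA element called the CArG box. In injured vessels these cells are known to be able to lose contractile proteins, divide and make matrix, a state called synthetic. Pericytes, their neighbours on capillaries, share many of their genes and are usually told apart by Rgs5, Kcnj8 and Abcc9.

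Of the 26 contractile apparatus genes compared below, 22 had an entry in the RefSeq promoter table (GRCm38.p6), in 26 windows that run from 250 bases before to 50 bases after the transcript start. A CArG box, searched as CC, 6 bases that are each A or T, then GG, was present in 3 of the 26 windows (11.5%), against 535 of 32851 windows of the same length in the whole table (1.63%). The element reads the same on the opposite strand in this form, so one search covers both strands. The windows with a box belonged to Myl9, a regulatory light chain of myosin, Vcl, which ties actin to integrins, and Myl6, the essential light chain, whose box lay 50 bases before the start in 1 of its 2 windows. None of the 9 windows of the 8 genes that were more than 2-fold lower in injured cells and had an entry held one. Myh11, which was also more than 2-fold lower, had no entry. With 9 windows this cannot be told apart from the 11.5% of the list. A box outside the window, or one with another base among the 6, would be missed. The sequences of Myl9 and Vcl are printed to show the boxes beside Smtn, the contractile gene with the largest difference, whose window held none. Capitals mark the box, which lay 161 bases before the start in Myl9 at chr2:156775214-156775513 on the plus strand and 227 bases before it in Vcl at chr14:20929148-20929447 on the plus strand. The Smtn window is chr11:3539243-3539542 on the minus strand.
Myl9: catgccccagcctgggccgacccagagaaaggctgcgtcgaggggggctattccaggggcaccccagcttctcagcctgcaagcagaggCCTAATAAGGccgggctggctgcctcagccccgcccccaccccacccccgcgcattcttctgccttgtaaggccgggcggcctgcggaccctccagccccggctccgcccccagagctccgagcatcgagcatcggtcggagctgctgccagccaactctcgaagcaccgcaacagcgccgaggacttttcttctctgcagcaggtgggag
Vcl: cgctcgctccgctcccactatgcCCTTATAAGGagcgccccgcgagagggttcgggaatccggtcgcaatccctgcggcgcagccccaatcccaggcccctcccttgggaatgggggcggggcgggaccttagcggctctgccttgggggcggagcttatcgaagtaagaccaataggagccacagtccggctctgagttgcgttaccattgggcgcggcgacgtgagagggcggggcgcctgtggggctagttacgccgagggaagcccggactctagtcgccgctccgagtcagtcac
Smtn: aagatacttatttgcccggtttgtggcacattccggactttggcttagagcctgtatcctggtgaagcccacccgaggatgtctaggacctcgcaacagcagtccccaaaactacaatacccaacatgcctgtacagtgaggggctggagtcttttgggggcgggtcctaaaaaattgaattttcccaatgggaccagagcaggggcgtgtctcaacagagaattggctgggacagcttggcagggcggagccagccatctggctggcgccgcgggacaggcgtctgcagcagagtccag

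The injured smooth muscle cells held 3967864 UMIs, with a median of 20405 UMIs and 4823 genes per cell, and the uninjured cells held 2405593 UMIs, with a median of 13708 UMIs and 3959 genes. Smooth muscle made up 1.83% of kept cells in the injured library (95% interval 1.56 to 2.12), against 3.24% in the uninjured library (2.75 to 3.78). Of kept cells with at most 1 Ptprc UMI, that is without leukocytes, they were 3.29% in the injured library (2.82 to 3.81) and 3.67% in the uninjured library (3.12 to 4.28). The direction of the difference in share of all kept cells turned with the mitochondrial limit. The median mitochondrial share of the smooth muscle cells was 4.30% in the injured library and 7.94% in the uninjured library, close to the limit. With a limit of 20%, 179 injured cells (1.85%) and 395 uninjured cells (7.06%) passed, and with a limit of 5%, 110 injured cells (1.32%) and 14 uninjured cells (0.570%) passed. The difference in share, injured minus uninjured, was therefore -1.41 percentage points at 10%, -5.21 at 20% and 0.752 at 5%. Of the smooth muscle barcodes 0 were shared between the libraries.

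Other smooth muscle genes fitted the label in both libraries. Lmod1, a protein that starts actin filaments in smooth muscle and was not used to choose the cells, had 329.9 CPM in the injured library, against 762 CPM in the uninjured library, and in leukocytes it had 1.82 and 1.54 CPM in the injured and uninjured libraries. Tagln, an actin-binding protein of smooth muscle, had 7977 CPM in the injured library, against 10986 CPM in the uninjured library. All 18 further smooth muscle markers were detected in both libraries, with a median summed level per cell of 157 cp10k in injured and 263 cp10k in uninjured cells. Pericyte markers were also present. Rgs5, a regulator of G protein signalling used to mark pericytes, had 5871 CPM in the injured library, against 3292 CPM in the uninjured library, and its per-cell median was 55.8 (quartiles 30.0 and 93.5) cp10k in injured cells and 12 (quartiles 0.589 and 51.8) cp10k in uninjured cells. Of the cells, 99 injured (57.9%) and 40 uninjured (26.0%) reached 50 cp10k of Rgs5, while 25 injured (14.6%) and 72 uninjured (46.8%) were under 10 cp10k. The 13 pericyte markers summed to a median of 89.4 cp10k in injured and 33.9 cp10k in uninjured cells. Most of this sum was Rgs5. Without it the other 12 markers summed to 2928 CPM in injured and 2591 CPM in uninjured cells. Of the 13 markers 0 were past 2-fold, with a median log2 ratio of 0.39 over all cells and -0.70 among cells with Myh11 plus Cnn1 from 5 to under 20 cp10k. Injured cells thus held more Rgs5, while the summed level of the other 12 markers was within 2-fold. At least 2 UMIs of Kcnj8 and Abcc9 together were held by 104 injured cells (60.8%) and 68 uninjured cells (44.2%). The median Myh11 plus Cnn1 of these cells was 10.7 cp10k in the injured and 24.5 cp10k in the uninjured library. These counts were not thinned to equal depth. Many of the chosen cells thus carried pericyte genes beside the smooth muscle genes, more of them in the injured library.

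**Figure D1:**
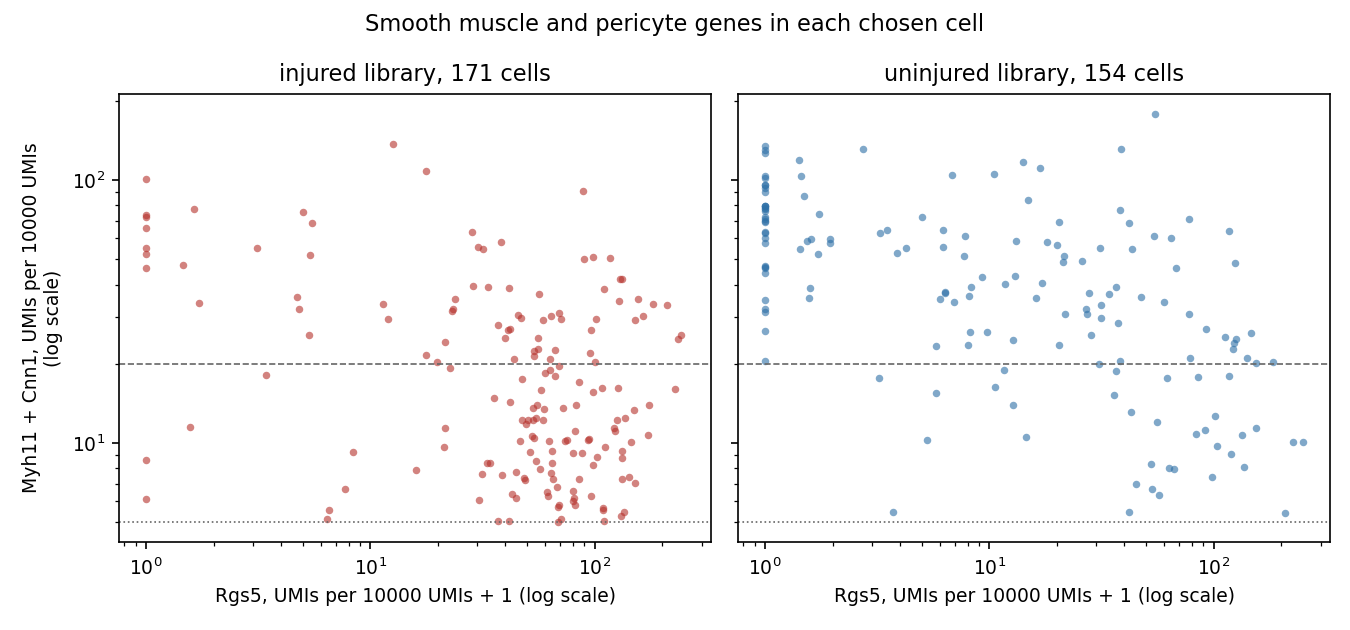
Each point is 1 smooth muscle cell, with Rgs5 on the horizontal axis and Myh11 plus Cnn1 on the vertical axis, both in UMIs per 10000 UMIs on log scales, for 171 injured cells (left) and 154 uninjured cells (right). The dotted line marks the threshold of 5 cp10k and the dashed line 20 cp10k: 100 injured cells and 35 uninjured cells lay between them.

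Cells near the thresholds were not spread evenly. Myh11 plus Cnn1 lay from 5 to under 6 cp10k in 15 injured and 3 uninjured cells, and 19 injured and 3 uninjured cells that met every other threshold lay just outside, from 4 to under 5 cp10k. Collagens lay from 180 to under 200 cp10k in 4 injured cells and 1 uninjured cell, and from 200 to under 220 cp10k in 4 injured and 0 uninjured cells. At least 3 UMIs of 5 cell cycle genes were seen in 26 injured cells (15.2%) and 1 uninjured cell (0.649%). Markers of other cell types were low but differed between the libraries. The summed level of 12 fibroblast markers was 2174 CPM in injured and 722 CPM in uninjured cells, all 12 detected in both. Col6a3 and Postn made up most of that sum, and without them the other 10 summed to 311 CPM in injured and 328 CPM in uninjured cells. Dcn (decorin), a fibroblast proteoglycan, stood on the other side with 49.1 CPM in injured cells and 135 CPM in uninjured cells. The 13 leukocyte markers summed to 214 CPM in injured cells, all detected, and 41.2 CPM in uninjured cells, where S100a9 was at 0. The 12 endothelial markers summed to 488 CPM in injured and 280.2 CPM in uninjured cells, most of it Esam and Flt1. The 5 red blood cell markers summed to 1868 CPM in injured and 79 CPM in uninjured cells, but 1 injured cell held 99.4% of the injured Hba-a1 UMIs and 98.6% of the Hbb-bs UMIs, and the median injured cell had 0. Keratinocyte markers were near 0, with 7 of 8 at 0 in uninjured cells. The part of these cells or of their free RNA in the results below was not tested.

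Across the transcriptome most genes had similar levels. Of 3917 genes that reached 50 CPM in either library, 266 (6.79%) were more than 2-fold higher and 204 (5.21%) more than 2-fold lower in injured cells, on the log2 scale of CPM plus a pseudocount of 5, with a median log2 ratio of 0.07. For the gene lists, members at 10 CPM or more were compared, and of all 9379 such genes 591 (6.3%) were higher and 392 (4.18%) lower, with a median of 0.03. Called higher or lower below means past this 2-fold limit, injured over uninjured. Among the 18 pathway lists, those with the 7 medians furthest from 0 were cell cycle (median log2 ratio 2.26), synthetic phenotype and repair matrix (1.62), inflammatory and chemokine genes (1.33), interferon response (0.99), elastic fibre and basement membrane (0.78), ion channels (-0.69) and contractile apparatus (-0.68). Members overlap between lists, and genes are not independent replicates.

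**Figure D2:**
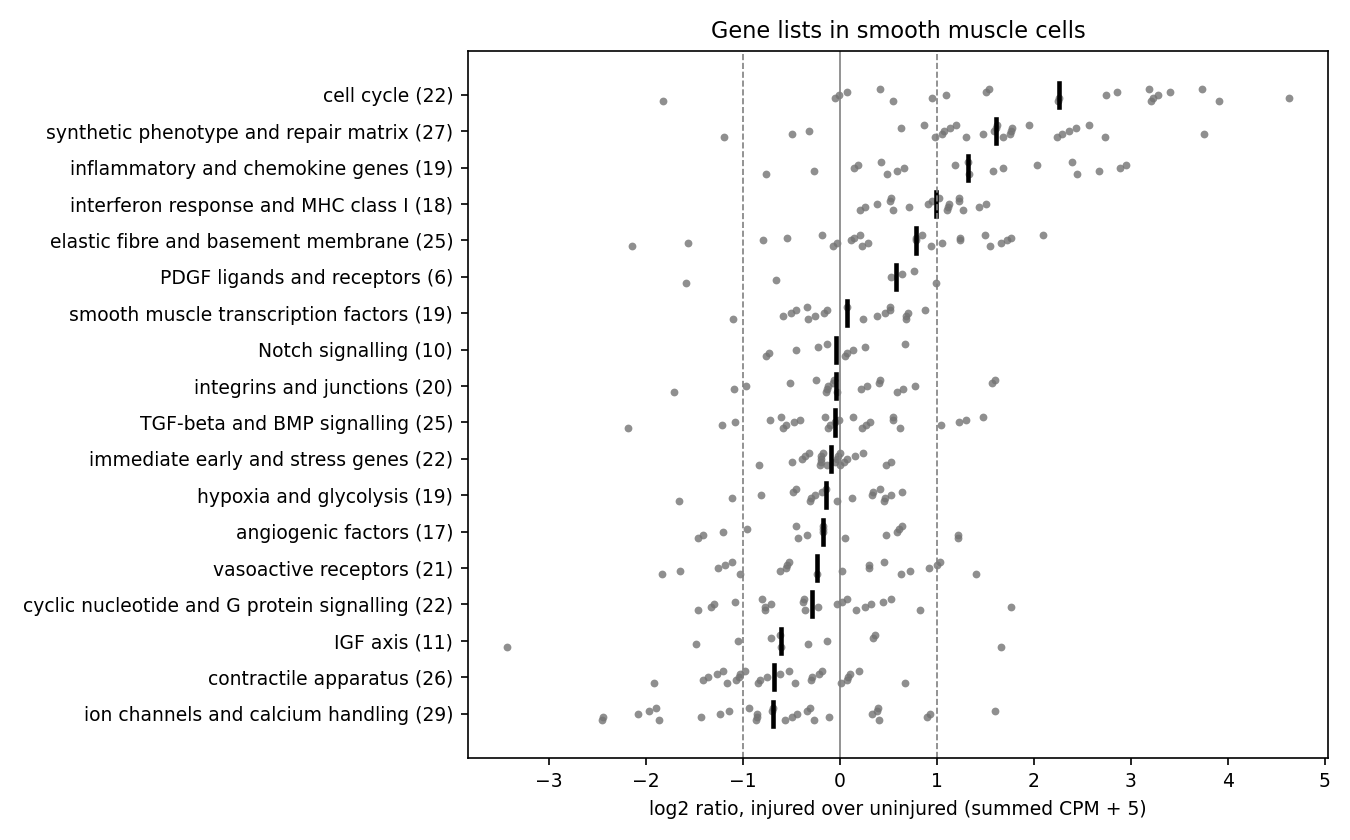
Each grey point is 1 gene of a list, placed by its log2 ratio of summed CPM plus 5, injured over uninjured, and each black bar is the list median, with the number of genes compared in brackets. Dashed lines mark 2-fold: cell cycle and repair matrix genes lie mostly to the right (medians 2.26 and 1.62), contractile and ion channel genes mostly to the left (medians -0.68 and -0.69).

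Many contractile apparatus genes were lower in injured cells. Of 26 members, all of them compared, 9 were called lower and 0 higher, against 4.18% and 6.3% of all genes at this level, and the list summed to 48452 CPM in injured and 68434 CPM in uninjured cells. Of the 23 members that did not choose the cells (all but Myh11, Cnn1 and Acta2), 8 were called lower and 0 higher, with a median of -0.74. All 26 were more than 2 times their leukocyte level in the injured library. Smtn (smoothelin, an actin-binding protein of mature contractile smooth muscle, mm10 chromosome 11, positions 3517523 to 3540612) had 93.5 CPM in the injured library, against 367 CPM in the uninjured library, 3.92-fold lower (95% interval 3.47 to 4.44). After every cell was thinned to 5000 UMIs, Smtn was seen in 25.5% of injured and 59.9% of uninjured smooth muscle cells and in 2.31% and 3.84% of injured and uninjured leukocytes. The regulatory subunit of myosin phosphatase Ppp1r12b had 221 CPM in injured cells and 597 CPM in uninjured cells. Its relative Ppp1r12a had 675 CPM in injured cells and 1421 CPM in uninjured cells. The intermediate filament protein Synm had 108 CPM in injured cells and 282 CPM in uninjured cells, and Lmod1 was 2.31-fold lower (95% interval 2.15 to 2.48). Myh11, the smooth muscle myosin heavy chain and one of the genes that chose the cells, had 2099 CPM in the injured library, against 5031 CPM in the uninjured library. Pdlim3, which sits at the anchor points of actin filaments, had 131 CPM in injured cells and 298 CPM in uninjured cells. Synpo2, an actin-bundling protein of the same sites, had 459 CPM in injured cells and 939 CPM in uninjured cells. The last of the 9, Tpm2, a tropomyosin that lies along actin, had 2669 CPM in injured cells and 5485 CPM in uninjured cells.

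Several abundant members differed little. Acta2, smooth muscle actin and a gene of the rule, had 12953 CPM in the injured library, against 14653 CPM in the uninjured library. Tpm1 had 3617 CPM in injured cells and 3569 CPM in uninjured cells. Cald1, which restrains myosin on actin, had 3275 CPM in injured cells and 3032 CPM in uninjured cells. Vcl had 566 CPM in injured cells and 536 CPM in uninjured cells. Des, the muscle intermediate filament desmin, had 302 CPM in injured cells and 283 CPM in uninjured cells. Actg2, the actin of visceral smooth muscle, was the member with the highest ratio, with 749 CPM in injured cells and 467 CPM in uninjured cells. The myosin light chains Myl9 and Myl6 were lower without reaching 2-fold. Myl9 had 2884 CPM in injured cells and 5153 CPM in uninjured cells. Myl6 had 3484 CPM in injured cells and 5842 CPM in uninjured cells. Actin, Tpm1 and caldesmon thus lay within 2-fold, while smoothelin, synemin and the phosphatase subunits lay beyond it. The smooth muscle transcription factors, taken as a list, were close to even. Of 19 compared transcription factors 0 were called higher and 1 lower, with a median of 0.08. Myocd (myocardin) had 146 CPM in injured cells and 221 CPM in uninjured cells, lower without reaching 2-fold. Its per-cell median was 0.668 cp10k in injured cells and 1.69 cp10k in uninjured cells. Srf had 16.1 CPM in injured cells and 15 CPM in uninjured cells. Klf4, a factor known to oppose myocardin, had 122 CPM in injured cells and 175 CPM in uninjured cells. Foxc1, a forkhead factor of vascular wall development, was the one called lower, with 46.4 CPM in injured cells and 105 CPM in uninjured cells.

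**Figure D3:**
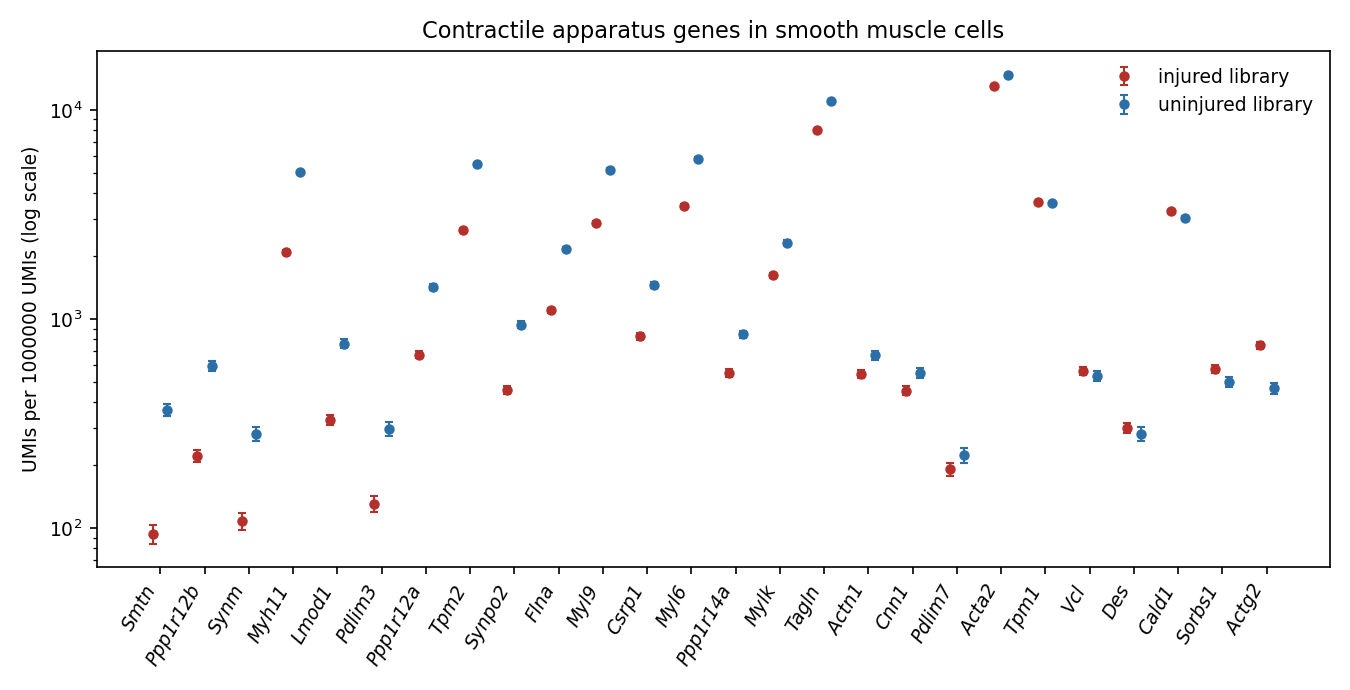
Summed level of the 26 contractile apparatus genes in UMIs per 1000000 UMIs (log scale), injured library (red, left of each pair) and uninjured library (blue), with exact 95% counting intervals, ordered by ratio from the lowest. Smtn at the left has 93.5 CPM in injured and 367 CPM in uninjured cells, and Acta2, Tpm1, Vcl and Des to the right lie close together.

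The libraries differed in their mix of cells. Injured cells with Myh11 plus Cnn1 from 5 to under 20 cp10k were 100 of 171 (58.5%), against 35 of 154 uninjured cells (22.7%). Compared within 4 bands of Myh11 plus Cnn1, the contractile median was 0.23 from 5 to under 10 cp10k, -0.01 from 10 to under 20, -0.04 from 20 to under 40 and -0.15 at 40 or more. These bands are cut on Myh11 and Cnn1, members of the list that also chose the cells, so matching on them narrows the contractile difference by construction. The lowest band holds 13 uninjured cells. Split by Rgs5, which the thresholds did not use, the contractile median was -0.33 under 10 cp10k of Rgs5, -0.38 from 10 to under 50 and -0.62 at 50 or more. Within the bands of Myh11 plus Cnn1 the repair matrix median stayed high, at 1.30, 1.16, 1.09 and 1.54 from the lowest band to the highest. Ion channels stayed negative, at -0.60, -0.73, -0.27 and -0.36. Smtn had 26.6 CPM in injured cells and 62.2 CPM in uninjured cells in the band from 5 to under 20 cp10k and 181 CPM in injured cells and 422 CPM in uninjured cells at 20 cp10k or more, so it was lower in injured cells in both. Acta2 had 8968 CPM in injured cells and 5640.2 CPM in uninjured cells in the lower band and 18188 CPM in injured cells and 16292 CPM in uninjured cells in the upper band, higher in injured cells in both and opposite to its level over all cells. Of the 266 genes higher over all cells, 122 were past 2-fold in both of 2 bands, from 5 to under 20 cp10k and at 20 cp10k or more, and 248 had the same sign in both. Of the 204 lower genes, 52 were past 2-fold in both and 188 had the same sign. The 2 bands are parts of the same cells that gave the 266 and 204 calls, so these counts are not independent of the calls. In the lower band 7.24% of 4128 genes were called higher and 8.19% lower, and in the upper band 5.07% of 3770 genes were called higher and 2.68% lower. Named genes whose log2 ratio turned from negative to positive in the lower band were Synm (0.19), Hpse2 (0.12), Igfbp2 (0.77) and Ntf3 (0.60), and those that turned to negative were Isg15 (-0.18), Adra2a (-0.085) and Nrp1 (-0.00010). Hpse2 and Igfbp2 had no UMIs in the 35 uninjured cells of this band, so their ratios are near the floor and are not read as a reversal. Nrp1 was even there.

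**Figure D4:**
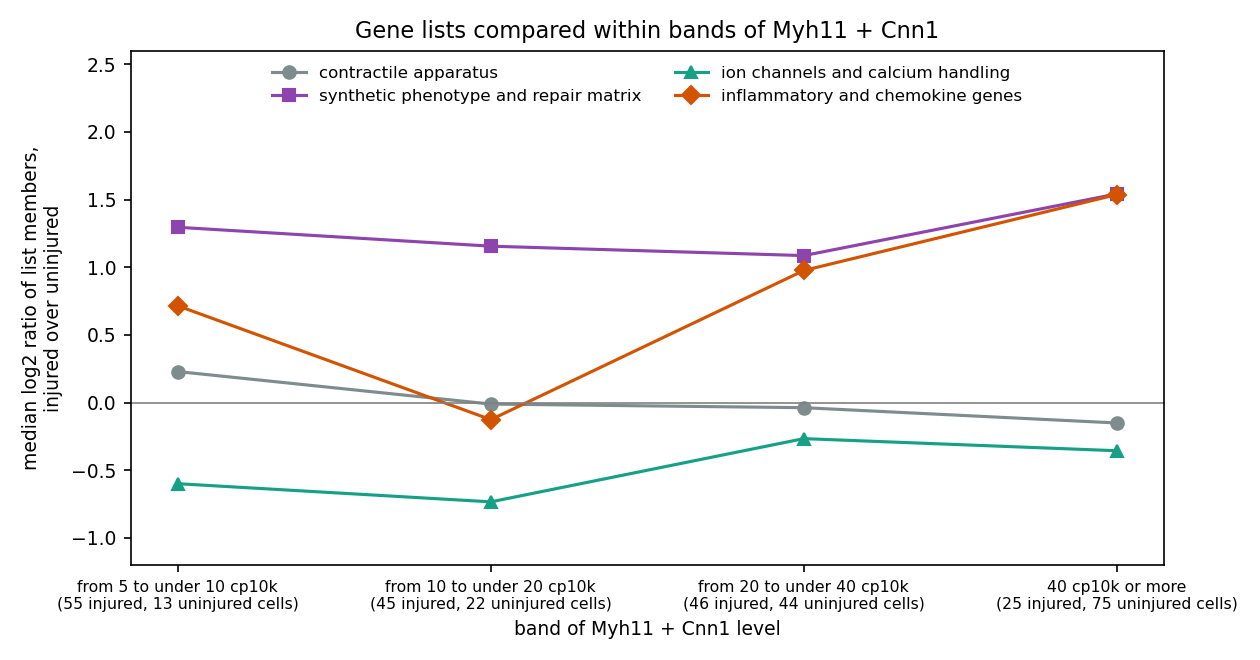
Median log2 ratio, injured over uninjured, of 4 gene lists (vertical axis) among cells in 4 bands of Myh11 plus Cnn1 (horizontal axis, with the number of cells of each library), lines joining the bands of 1 list. Repair matrix genes lie between 1.09 and 1.54 in every band, while contractile genes lie between -0.15 and 0.23.

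Some of the genes that carry calcium and potassium and set the tone of the muscle were lower in injured cells, while most were within 2-fold. Of 29 compared ion channel and calcium handling genes (Sln was at 0 in both libraries), 9 were called lower, 1 higher and 19 neither. Pln (phospholamban, which restrains the calcium pump of the sarcoplasmic reticulum) had 93 CPM in the injured library, against 378 CPM in the uninjured library, 4.06-fold lower (95% interval 3.6 to 4.6). On thinned counts Pln was seen in 18% of injured and 47.6% of uninjured cells and in 0.0890% and 0.366% of injured and uninjured leukocytes, so it is close to specific for muscle here. Kcnma1, the pore of the large-conductance calcium-activated potassium channel, had 43.3 CPM in the injured library, against 257 CPM in the uninjured library, 5.94-fold lower (95% interval 5.01 to 7.07). Its smooth muscle subunit Kcnmb1 had 26.7 CPM in injured cells and 69.4 CPM in uninjured cells. Kcnma1 is also among the 15 lowest genes of the whole comparison. Casq2, a calcium-binding protein of the reticulum, had 42.3 CPM in injured cells and 194 CPM in uninjured cells. The voltage-gated potassium channel gene Kcna5 had 24.7 CPM in injured cells and 103 CPM in uninjured cells. Ryr2, a calcium release channel, had 81.7 CPM in injured cells and 186 CPM in uninjured cells.

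The main calcium entry channel was within 2-fold. Its pore subunit Cacna1c had 541 CPM in injured cells and 649 CPM in uninjured cells. The calcium pump Atp2a2 had 424 CPM in injured cells and 770.3 CPM in uninjured cells. The store calcium channel Itpr1 had 204 CPM in injured cells and 331 CPM in uninjured cells. Some channels stood on the other side. Trpc6 had 111 CPM in injured cells and 57 CPM in uninjured cells. The background potassium channel Kcnk3 had 202 CPM in injured cells and 103 CPM in uninjured cells. Piezo1, a stretch-gated channel and the one member called higher, had 40.6 CPM in injured cells and 9.98 CPM in uninjured cells. Piezo1 had 92.5 and 93.4 CPM in leukocytes of the injured and uninjured libraries. Within the band at 20 cp10k or more of Myh11 plus Cnn1, Kcnma1 had 89.8 CPM in injured cells and 302 CPM in uninjured cells and Pln had 208 CPM in injured cells and 437 CPM in uninjured cells, so both were lower in injured cells there too.

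Receptors for vasoactive signals were mixed. Of 37 members 21 were compared, with 3 called higher, 6 lower and a median of -0.23. Adra1a, an alpha-1 adrenergic receptor that contracts muscle, had 21.7 CPM in injured cells and 78.2 CPM in uninjured cells. Npy1r, a receptor of neuropeptide Y from sympathetic nerves, had 233 CPM in injured cells and 509.6 CPM in uninjured cells. S1pr3, a sphingosine phosphate receptor, had 113 CPM in injured cells and 261 CPM in uninjured cells. Adra2a, an alpha-2 adrenergic receptor, had 130.3 CPM in injured cells and 46.1 CPM in uninjured cells, 2.82-fold higher (95% interval 2.3 to 3.5), but its ratio was below 1 among cells with Rgs5 under 10 cp10k, with 7.35 CPM in injured cells and 12.1 CPM in uninjured cells. In the pericyte class Adra2a had 172 CPM in the injured library and 110.4 CPM in the uninjured library. Endothelin receptors were within 2-fold. Ednra had 282 CPM in injured cells and 228 CPM in uninjured cells. Ednrb had 231 CPM in injured cells and 138 CPM in uninjured cells. Of 22 compared cyclic nucleotide and G protein signalling genes 4 were called lower and 1 higher (median -0.29). The 4 were Mrvi1, Rgs2, Rgs7bp and Plcb4. The list holds the nitric oxide pathway, which relaxes the muscle, but also other genes such as Plcb4 and Rock1. The soluble guanylate cyclase subunit gene Gucy1a1 had 391 CPM in injured cells and 669 CPM in uninjured cells. The kinase gene Prkg1 had 1433 CPM in injured cells and 1829 CPM in uninjured cells. Its store partner Mrvi1 had 118 CPM in injured cells and 297 CPM in uninjured cells. Rgs2, which dampens contraction signals, had 52.7 CPM in injured cells and 153 CPM in uninjured cells, while Rgs16 of the same family was the member called higher, with 262 CPM in injured cells and 73.2 CPM in uninjured cells.

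Matrix genes of the synthetic state were higher in injured cells, and many of them were also higher in leukocytes of that library. Of 28 members 27 were compared (Tnfrsf11b was under 10 CPM), and 21 were called higher and 1 lower, with a median of 1.62. In leukocytes, which are not known to make most of these proteins, the same list had a median of 1.60, as large as in smooth muscle. Of the 21 called higher, 7 were more than 2 times their leukocyte level in the injured library: Col6a1, Col6a2, Col6a3, Bgn, Mgp, Sparc and Lgals1. The other 14, among them Tnc, Postn, Fn1, Thbs1 and Timp1, were not. Over all 11 compared members above 2 times the leukocyte level the median was 1.48. Members passed this limit by their injured level alone, which favours higher ratios, so this median is only a description. The part of free RNA in the result was not tested.

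Among the members well above leukocytes, Col6a3, a chain of collagen VI around vessels, had 990.2 CPM in the injured library, against 251 CPM in the uninjured library, 3.94-fold higher (95% interval 3.62 to 4.3), with 144 and 45.5 CPM in injured and uninjured leukocytes. On thinned counts Col6a3 was seen in 88.2% of injured and 54.4% of uninjured smooth muscle cells and in 9.64% and 5.3% of injured and uninjured leukocytes. Sparc, a collagen-binding matricellular protein, had 5387 CPM in the injured library, against 1742 CPM in the uninjured library, 3.09-fold higher (95% interval 2.99 to 3.2), with 1645 and 539.6 CPM in injured and uninjured leukocytes. The proteoglycan gene Bgn had 967 CPM in injured cells and 343 CPM in uninjured cells. Lgals1 (galectin 1) had 3153 CPM in injured cells and 1516 CPM in uninjured cells. Mgp, an inhibitor of vessel calcification, had 1203 CPM in injured cells and 242 CPM in uninjured cells over all cells, but its direction turned with the band. It had 2060.2 CPM in injured cells and 559 CPM in uninjured cells in the band from 5 to under 20 cp10k of Myh11 plus Cnn1, and 78.1 CPM in injured cells and 184 CPM in uninjured cells at 20 cp10k or more. In the pericyte class Mgp had 4214 CPM in the injured library and 1174 CPM in the uninjured library.

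Among those nearer to the leukocyte level, Tnc (tenascin C, a matricellular protein of wounds) had 341 CPM in the injured library, against 59 CPM in the uninjured library, 5.77-fold higher (95% interval 4.85 to 6.91), and 188 and 27.3 CPM in injured and uninjured leukocytes. Of the injured Tnc UMIs 29.1% lay in 1 cell. Postn (periostin) had 873 CPM in injured cells and 143 CPM in uninjured cells in smooth muscle and 733 and 131 CPM in injured and uninjured leukocytes, so the muscle level was near that of cells not known to make it. In mesenchymal cells Postn had 5309.5 CPM in the injured library and 2212 CPM in the uninjured library. Fn1 (fibronectin) had 827 CPM in injured cells and 241 CPM in uninjured cells, with 827 and 688 CPM in injured and uninjured leukocytes, which are known to make it. Timp1, a metalloproteinase inhibitor, had 102 CPM in injured cells and 2.91 CPM in uninjured cells, with 180.1 and 57.3 CPM in injured and uninjured leukocytes. The one member called lower was Timp3, the inhibitor that binds to matrix, with 418 CPM in the injured library, against 962 CPM in the uninjured library, 2.3-fold lower (95% interval 2.16 to 2.45). The fibroblast-lineage gene Cthrc1 had 33.8 CPM in injured cells and 0.831 CPM in uninjured cells, with 199 CPM in injured leukocytes.

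Basement membrane and elastic fibre genes differed member by member. Of 29 members 25 were compared, and 9 were called higher and 2 lower, with a median of 0.78 in smooth muscle and 0.33 in leukocytes. Of the 9 called higher, 3 were more than 2 times their leukocyte level in the injured library, namely Col4a1, Col18a1 and Nid1, and over all 15 members above that level the median was 0.23. Here too members passed the limit by their injured level alone, so this median is only a description. The list median was 0.24 among cells from 5 to under 20 cp10k of Myh11 plus Cnn1 and 0.18 among cells with 50 cp10k or more of Rgs5. In that Rgs5 band 3 members were called higher and 3 lower. It held 40 uninjured cells, and the share over all genes was not computed for it, so these counts cannot be set against one. Col18a1, the basement membrane collagen that yields endostatin, had 1185 CPM in the injured library, against 273 CPM in the uninjured library, 4.35-fold higher (95% interval 4.0 to 4.72), with 45.5 and 10.3 CPM in injured and uninjured leukocytes (mm10 chromosome 10, positions 77052178 to 77166548). On thinned counts Col18a1 was seen in 92.5% of injured and 56.5% of uninjured smooth muscle cells and in 5.67% and 2.19% of injured and uninjured leukocytes, and mesenchymal cells had 41.1 CPM in the injured library and 78.3 CPM in the uninjured library. Col4a1, a main chain of basement membrane collagen IV, had 1797 CPM in the injured library, against 756 CPM in the uninjured library, 2.38-fold higher (95% interval 2.26 to 2.5). The laminin-binding Nid1 had 256 CPM in injured cells and 84 CPM in uninjured cells. Fbn1 (fibrillin 1, the scaffold of elastic fibres) had 301 CPM in injured cells and 84.8 CPM in uninjured cells, with 189.9 and 54.3 CPM in injured and uninjured leukocytes. Eln (elastin) had 666 CPM in injured cells and 343 CPM in uninjured cells. The minor collagen IV chains stood on the other side. Col4a5 had 42.6 CPM in injured cells and 136 CPM in uninjured cells. Col4a6 had 8.06 CPM in injured cells and 52.4 CPM in uninjured cells. Col4a2, the usual partner of Col4a1, lay within 2-fold, with 872 CPM in injured cells and 482 CPM in uninjured cells. Of 20 compared integrin and junction genes 2 were called higher and 2 lower. Itga8, an integrin chain of contractile smooth muscle, had 106 CPM in the injured library, against 358 CPM in the uninjured library, 3.37-fold lower (95% interval 3.0 to 3.79). Cdh6, a cadherin, had 48.9 CPM in injured cells and 109 CPM in uninjured cells, with the direction reversed among the cells under 5% mitochondrial UMIs, where 14 uninjured cells remained. Itga5, the fibronectin receptor chain, had 94.5 CPM in injured cells and 27.9 CPM in uninjured cells. Cdh2 (N-cadherin) had 126 CPM in injured cells and 39.1 CPM in uninjured cells.

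Many cytokine genes were higher in injured cells. Of 30 members 19 were compared, with 11 called higher and 0 lower, and the median was 1.33 in smooth muscle and 0.46 in leukocytes. The list median was 0.44 among cells from 5 to under 20 cp10k of Myh11 plus Cnn1, with 6 called higher and 6 lower, and 1.56 at 20 cp10k or more, with 13 called higher and 0 lower. From 10 to under 20 cp10k it was -0.13, with 4 called higher and 5 lower. That band held 22 uninjured cells, and the share over all genes was not computed for it. Of the 11, 4 were more than 2 times their leukocyte level in the injured library, namely Il6, Cxcl1, Il1r1 and Ccl19, the last of which shares reads with near-identical copies and is uncertain. Il6, a cytokine that smooth muscle is known to release, had 249.5 CPM in the injured library, against 34.9 CPM in the uninjured library, 7.15-fold higher (95% interval 5.71 to 9.04), with 13.8 and 22.4 CPM in injured and uninjured leukocytes. On thinned counts Il6 was seen in 39.1% of injured and 10.9% of uninjured smooth muscle cells and in 2.52% and 4.75% of injured and uninjured leukocytes. Il1r1, the receptor of interleukin 1, had 375 CPM in injured cells and 146 CPM in uninjured cells. Cxcl1, a neutrophil attractant, had 348 CPM in injured cells and 113 CPM in uninjured cells. Ccl2, which draws monocytes, had 118 CPM in injured cells and 11.6 CPM in uninjured cells and 144 and 157 CPM in injured and uninjured leukocytes, which also make it. Nfkbia, an inhibitor and target of NF-kB, had 615 CPM in injured cells and 266 CPM in uninjured cells. Icam1, an adhesion molecule, had 73.8 CPM in injured cells and 9.98 CPM in uninjured cells. Tnfaip6, whose product binds hyaluronan, was lower without reaching 2-fold, at 42.1 CPM in injured cells and 74.4 CPM in uninjured cells.

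Of 18 compared interferon response and MHC class I genes 9 were called higher and 0 lower, with a median of 0.99, and all 9 were at or under 2 times their leukocyte level in the injured library. The leukocyte median of the list was 0.19. Ifitm3, a membrane protein that blocks virus entry, had 1345 CPM in injured cells and 621 CPM in uninjured cells. B2m, the light chain of MHC class I, had 422 CPM in injured cells and 205 CPM in uninjured cells. Isg15 had 100.3 CPM in injured cells and 43.2 CPM in uninjured cells. Bst2 had 121 CPM in injured cells and 48.6 CPM in uninjured cells. The list median was 0.058 among cells with Rgs5 under 10 cp10k, where the log2 ratio of Bst2 was -0.32. Immediate early and stress genes, which dissociation can raise, were close to even, with 0 of 22 compared called in either direction and a median of -0.09. Fos had 943 CPM in injured cells and 1684 CPM in uninjured cells and Hspa1a had 179 CPM in injured cells and 205 CPM in uninjured cells. Hypoxia and glycolysis genes had 0 called higher and 2 lower of 19, with a median of -0.14, the 2 being Ndrg1 with 49.4 CPM in injured cells and 166 CPM in uninjured cells and Bnip3 with 7.31 CPM in injured cells and 21.6 CPM in uninjured cells.

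Cell division genes were seen mainly in the injured library. Of 22 compared cell cycle genes 15 were called higher and 1 lower (median 2.26). Mki67, a marker of dividing cells, had 378 UMIs in 27 injured cells and 4 UMIs in 1 uninjured cell, and Top2a, which untangles DNA before division, had 514 UMIs in 27 injured cells and 1 UMI in 1 uninjured cell. Ccna2 (cyclin A2) had 43.6 CPM in injured cells and 0 UMIs in uninjured cells, at least 35-fold higher against a limit of 3 counts over the uninjured cells. Ccnd1 (cyclin D1), which starts the cycle, had 74.6 CPM in injured cells and 22.9 CPM in uninjured cells, and Ccnd2 had 452 CPM in injured cells and 454 CPM in uninjured cells. The inhibitor Cdkn1c was the one called lower, with 25.5 CPM in injured cells and 103 CPM in uninjured cells. Without the 26 injured cells and the 1 uninjured cell with at least 3 UMIs of 5 cell cycle genes, the list median was 0.17. In these cycling injured cells the median Rgs5 was 54.0 cp10k, against 55.8 cp10k in all injured smooth muscle cells. By bands of Myh11 plus Cnn1, the list median was 1.73 from 5 to under 10 cp10k and 2.77 from 10 to under 20. It was 2.67 from 20 to under 40 cp10k. At 40 cp10k or more, with 25 injured and 75 uninjured cells, it was 0.23. There 7 genes were compared, with 0 called higher and 1 lower. The higher level was thus not seen in the cells richest in Myh11 and Cnn1.

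Growth factor genes were mostly near even, with exceptions. Of 11 compared genes of the insulin-like growth factor axis 3 were called lower and 1 higher, with a median of -0.61. Igfbp5, the most abundant binding protein apart from Igfbp7, had 1421 CPM in the injured library, against 2951 CPM in the uninjured library, 2.08-fold lower (95% interval 2.0 to 2.15), and Igfbp7 had 4762 CPM in injured cells and 3684 CPM in uninjured cells. Igfbp2 had 4.03 CPM in injured cells and 92.3 CPM in uninjured cells, with its uninjured UMIs in 12 cells. The PDGF list had a median of 0.59 over 6 compared genes. Pdgfrb, the receptor that recruits mural cells, had 444 CPM in injured cells and 306 CPM in uninjured cells. The ligand gene Pdgfa had 339 CPM in injured cells and 197 CPM in uninjured cells, and Pdgfd was called lower, with 65.3 CPM in injured cells and 205 CPM in uninjured cells. Of 25 compared TGF-beta and BMP genes 4 were called higher and 3 lower (median -0.04). Tgfb1 had 63.3 CPM in injured cells and 19.5 CPM in uninjured cells. The ligand gene Bmp6 had 11.1 CPM in injured cells and 67.8 CPM in uninjured cells. Bmp6 was lower in injured endothelial cells too, with 23.5 CPM in the injured library and 165 CPM in the uninjured library. Id2, a BMP target, had 92.7 CPM in injured cells and 222 CPM in uninjured cells. Notch genes, which keep smooth muscle differentiated, had 0 called of 10, and Notch3, the main receptor of these cells, had 785 CPM in injured cells and 754 CPM in uninjured cells. Of 17 compared angiogenic factors 2 were called higher and 3 lower. Nrp1, a VEGF co-receptor, had 168 CPM in injured cells and 69.4 CPM in uninjured cells. The secreted factor gene Angptl2 had 79.6 CPM in injured cells and 31.2 CPM in uninjured cells. Fgf1 had 72.1 CPM in injured cells and 172 CPM in uninjured cells. The neurotrophin gene Ntf3 had 21.2 CPM in injured cells and 64.4 CPM in uninjured cells.

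The 15 highest and 15 lowest ratios among genes at 50 CPM or more are listed by a fixed rule. The 15 highest are mostly genes of chromosome duplication and cell division, among them Pclaf, Hist1h1b, Prc1, Cenpf, Diaph3, Ube2c, Anln and Cdk1. Pclaf, a partner of the replication clamp, had 330 UMIs in 27 injured cells and 0 in uninjured cells. The others include Dlk1, a Notch-like surface protein, with 114 CPM in injured cells and 5.4 CPM in uninjured cells, Agt, the precursor of angiotensin, with 58.2 CPM in injured cells and 1.25 CPM in uninjured cells, and Adam12, a membrane protease, with 116 CPM in injured cells and 9.56 CPM in uninjured cells. In the pericyte class Dlk1 had 295 CPM in the injured library and 277 CPM in the uninjured library, close to even and above its smooth muscle level in both. In that class Agt had 78.5 CPM in the injured library and 2.35 CPM in the uninjured library. Adam12 had 294 CPM in the injured library and 47 CPM in the uninjured library there. Adam12 was also higher in the injured library in leukocytes (77 and 12.9 CPM), endothelial cells (171 and 24.8 CPM) and mesenchymal cells (434 and 123 CPM). Its injured smooth muscle level was under 2 times that of injured leukocytes. Agt was seen in 22.4% of injured and 0.680% of uninjured smooth muscle cells on thinned counts and in 0.297% and 0% of injured and uninjured leukocytes.

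Among the 15 lowest, Ccn3, a matricellular protein of the vessel wall, had 39.8 CPM in the injured library, against 342 CPM in the uninjured library, 8.58-fold lower (95% interval 7.23 to 10.2), but its log2 ratio was 0.20 among cells with Rgs5 under 10 cp10k. Ogn (osteoglycin, a small proteoglycan) had 34 CPM in injured cells and 246 CPM in uninjured cells. Mesenchymal cells had more Ogn, with 696 CPM in the injured library and 1177 CPM in the uninjured library. In leukocytes Ogn had 85.8 and 40.3 CPM in the injured and uninjured libraries, so the injured smooth muscle level was below that of injured leukocytes. Wfdc1, a secreted protein, had 20.9 CPM in injured cells and 125 CPM in uninjured cells, and Timp4 had 50.7 CPM in injured cells and 237 CPM in uninjured cells. In injured and uninjured leukocytes Wfdc1 had 0.911 and 0.386 CPM and Timp4 had 1.27 and 59.3 CPM. Timp4 was also lower in injured endothelial cells, with 49.9 CPM in the injured library and 655 CPM in the uninjured library. Adgrg6, an adhesion receptor, had 8.06 CPM in injured cells and 91 CPM in uninjured cells. It was lower in injured leukocytes too, with 19.1 and 79.7 CPM in the injured and uninjured libraries. On thinned counts Adgrg6 was seen in 18.4% of uninjured smooth muscle cells and 24.5% of uninjured leukocytes, so the smooth muscle share is not above theirs. The phosphatase gene Ptprd had 4.79 CPM in injured cells and 58.6 CPM in uninjured cells. Chchd10 of mitochondria had 12.3 CPM in injured cells and 84.8 CPM in uninjured cells. The G protein gene Gna14 had 17.4 CPM in injured cells and 100.2 CPM in uninjured cells. Enpp2 (autotaxin, which makes lysophosphatidic acid) had 21.9 CPM in injured cells and 125 CPM in uninjured cells. Hpse2, a relative of heparanase, had the lowest ratio, with 2.27 CPM in injured cells and 133 CPM in uninjured cells, but its uninjured UMIs came from 18 cells, 34.3% of them from 1 cell. Hpse2 and Igfbp2 had 0 UMIs in the 35 uninjured cells from 5 to under 20 cp10k of Myh11 plus Cnn1, so all their uninjured UMIs lay in cells at 20 cp10k or more. Other genes, chosen after their values were seen, include Thy1, a surface glycoprotein of mural cells and fibroblasts, with 255 CPM in the injured library, against 31.6 CPM in the uninjured library, 8.07-fold higher (95% interval 6.39 to 10.3), and Acan (aggrecan, a proteoglycan of cartilage and of stressed vessel walls) with 100.3 CPM in injured cells and 9.98 CPM in uninjured cells. In leukocytes Thy1 had 25.8 and 11 CPM and Acan had 28 and 0 CPM in the injured and uninjured libraries. S100a4 had 1201 CPM in injured cells and 163 CPM in uninjured cells, but on thinned counts it was seen in 62.7% of injured and 23.1% of uninjured smooth muscle cells and in 62.9% and 64.5% of injured and uninjured leukocytes, so the smooth muscle share is not above theirs.

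The smooth muscle cells were set beside the pericyte class, that is, cells outside the smooth muscle rule with at least 5 cp10k of Rgs5 and 1 UMI of Kcnj8 or Abcc9, with the same limits on endothelial, leukocyte and collagen genes. It held 199 injured and 48 uninjured cells, so its uninjured values rest on few cells and 425752 UMIs. Smooth muscle was 171 of 370 mural cells in the injured library (46.2%, 41.0 to 51.4), against 154 of 202 in the uninjured library (76.2%, 69.8 to 81.9). Finding a UMI of Kcnj8 or Abcc9 depends on depth, and pericyte class cells had a median of 18122 UMIs in the injured and 8231 in the uninjured library. This share was not recomputed at equal depth or with other mitochondrial limits. In the pericyte class 12.5% of 4322 genes were more than 2-fold higher and 13% more than 2-fold lower, and in 1918 injured and 857 uninjured mesenchymal cells, those with 200 cp10k or more of collagens, 5.61% and 8.09% of 3796 genes. The contractile median was -0.68 in smooth muscle, 0.01 in the pericyte class and 0.60 in mesenchymal cells. The repair matrix median was 1.62 in smooth muscle, 1.48 in the pericyte class and 0.62 in mesenchymal cells. Smooth muscle and pericyte class medians were 2.26 and 2.51 for cell cycle, 1.33 and 1.24 for inflammatory and chemokine genes and -0.69 and -1.02 for ion channels. They were 0.99 and 0.44 for interferon response and 0.78 and 0.16 for elastic fibre and basement membrane. These differences between classes were not tested. Col18a1 had 961 CPM in the injured library and 132 CPM in the uninjured library in the pericyte class, so it was higher in injured cells of both mural classes, and it was lower in injured mesenchymal cells. In the endothelial class Col18a1 was also higher in injured cells, with 481 CPM in the injured library and 115 CPM in the uninjured library. Pln was almost absent from the pericyte class, with 0.489 CPM in the injured library and 4.7 CPM in the uninjured library. Rgs5 itself had 5684 CPM in the injured library and 14929 CPM in the uninjured library in that class, the opposite direction to smooth muscle. Its injured level there was close to that in injured smooth muscle. Itga8 had 2.44 CPM in the injured library and 0 CPM in the uninjured library in the pericyte class.

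**Figure D5:**
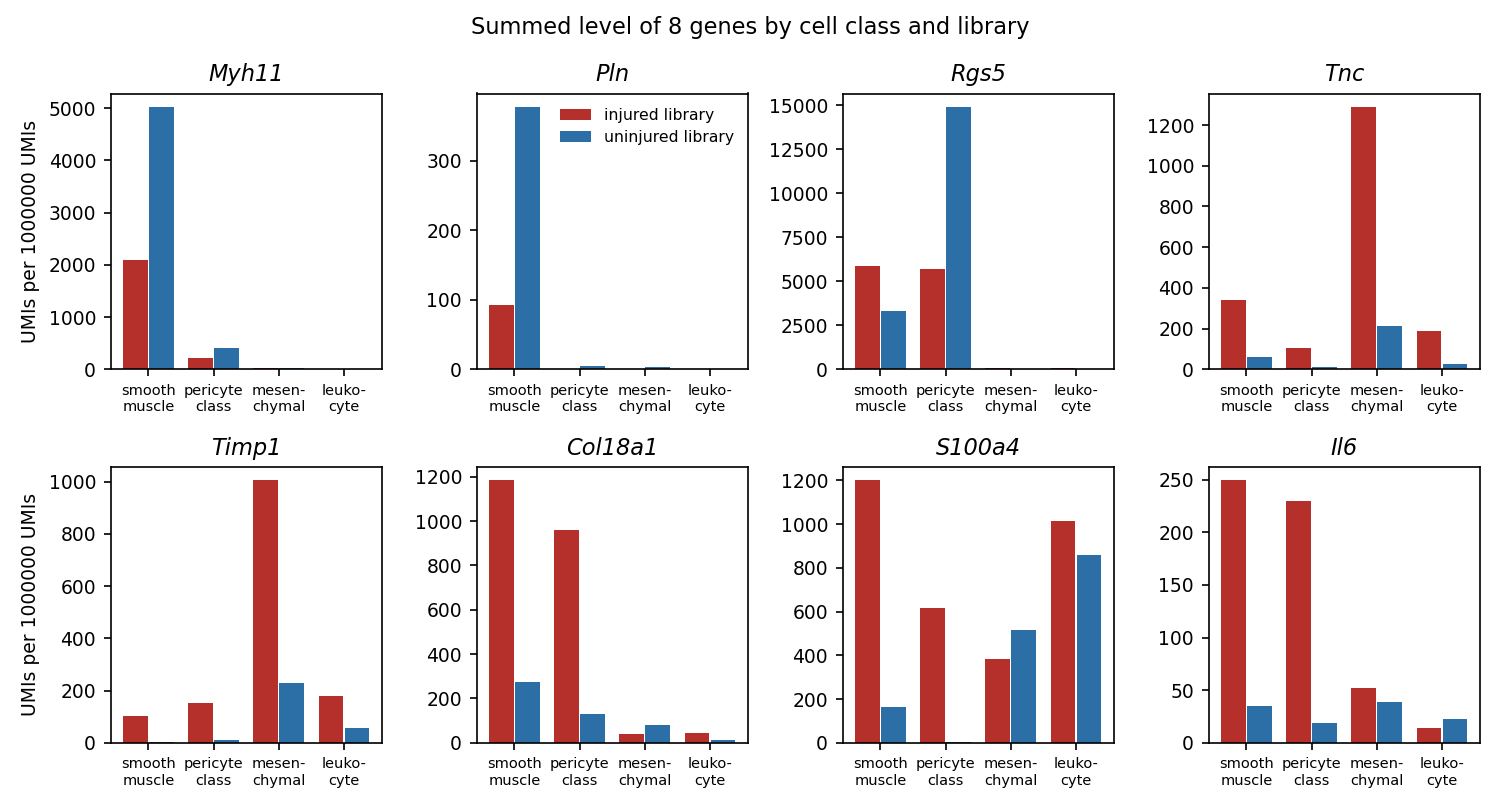
Summed level of 8 genes in UMIs per 1000000 UMIs (bars from 0, no replicates) in smooth muscle, the pericyte class, mesenchymal cells and leukocytes, injured library in red (left) and uninjured library in blue (right). Myh11 and Pln are high in smooth muscle and lower there in the injured library, Tnc and Timp1 are highest in injured mesenchymal cells, Col18a1 is highest of these 4 classes in the mural ones, and S100a4 is high in leukocytes of both libraries and in injured smooth muscle.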

How the data were processed

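The values deposited by the authors are raw counts of UMIs for each gene in each barcode, made with Cell Ranger 5.0.1 on mm10, per the submitters' processing notes. The annotation release and cell calling settings are details not given in the sources used here. The labels' protocols describe collagenase and dispase digestion, a strainer and a 10x Genomics 3′ kit, so counts are not full-length. Of 32285 gene IDs 32235 were found in GENCODE vM21.

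Groups came from the treatment label. UMIs of the smooth muscle cells were summed per library and scaled to CPM with Python 3.11.15, numpy 2.4.6, pandas 2.3.3 and scipy 1.17.1. Log2 ratios used a pseudocount of 5 CPM. Single genes carry exact Poisson and conditional ratio intervals and shares exact Clopper-Pearson intervals. For shares of cells with a UMI, cells were thinned to 5000 UMIs, which left out 10 injured and 7 uninjured smooth muscle cells. Other classes were leukocytes (at least 2 Ptprc UMIs), endothelial cells (at least 3 UMIs of Pecam1 and Cdh5), mesenchymal cells and the pericyte class. Doublets were not removed. Scrublet in scanpy 1.11.5 scored 1 smooth muscle cell of each library above 0.2. The named genes were the 15 highest and 15 lowest log2 ratios at 50 CPM or more, the extremes of each list and the markers, without mitochondrial, ribosomal, haemoglobin, sex-linked and unnamed genes. A gene was left out of the 30 if its level was under 0.2 of that in another class. Genes chosen after their values were seen were Acan, B2m, Bgn, Casq2, Cd44, Col4a1, Col5a3, Col6a3, Cthrc1, Cxcl1, Fabp4, Fn1, Has2, Icam1, Ifitm3, Kcna5, Mgp, Mrvi1, Nfkbia, Nid1, Npy1r, S100a4, Sparc, Thbs1, Thy1, Tnc and Tpm4, and further list members are named for their role. The members, thresholds and gene lists were chosen with earlier results of these data known, and the comparison with leukocyte levels and the bands were added after seeing the data. Alternatives changed the pseudocount, scaling, minimum level, depth, cell filters and thresholds. Some items are not reported here. The ratio code was tested on simulated data.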

Additional observations from a re-analysis of the deposited data

How the results depend on the processing

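No paired analysis was possible because each group holds 1 library, and for the same reason no library could be left out. Library, limb and injury cannot be told apart. Of 106 named genes past 2-fold, between 72 and 106 stayed past it and between 99 and 106 kept their direction over the settings tried. Median-of-ratios scaling moved every log2 ratio by under 0.01. The share of smooth muscle among kept cells, injured minus uninjured, was 0.752 percentage points with a mitochondrial limit of 5%, -5.21 with 20%, -0.463 in cells that had Xist but lacked Y-linked UMIs and -2.80 in cells that had Y-linked UMIs but lacked Xist. In cells from 5 to under 20 cp10k of Myh11 plus Cnn1 it was 0.332. Counts of genes higher and lower were 686 and 426 with no minimum level, 152 and 130 with a minimum of 100 CPM, and 453 and 513 with the limit of 5%, where 14 uninjured cells remained. With the limit of 20%, 408 were higher, 101 were lower at 20 cp10k or more, and 338 were lower from 5 to under 20 cp10k. The cell cycle median was 3.42 with a pseudocount of 1 CPM, -0.0062 with a minimum of 100 CPM, where 5 genes remained, and 0.17 without cycling cells. The repair matrix median was 2.05 at 20% and 1.99 with Rgs5 under 10 cp10k, and the contractile median was -0.074 from 5 to under 20 cp10k. The interferon median was 1.29 at 20%, 0.36 with collagens under 50 cp10k, 0.058 with Rgs5 under 10 cp10k and 0.31 from 5 to under 20 cp10k. The immediate early median was -0.26 at 5%, 0.13 at 20 cp10k or more, -0.29 without cells with 2 or more Kcnj8 and Abcc9 UMIs, 0.062 without cycling cells and -0.47 from 5 to under 20 cp10k. The hypoxia median was -0.46 at 5% and the angiogenic median -0.51 with Rgs5 under 10 cp10k. Single log2 ratios that turned were Cdh6 at 3.05 and Synm at 0.073 with the limit of 5%, and Mgp at -1.18 at 20 cp10k or more. Adra2a was -0.18 with collagens under 50 cp10k, -0.47 with Rgs5 under 10 cp10k and -0.085 from 5 to under 20 cp10k. With Rgs5 under 10 cp10k, Bst2 was -0.32, Ccn3 0.20 and Hist1h2ap -0.23, and Hist1h2ap was -0.16 without cycling cells. From 5 to under 20 cp10k, Hpse2 was 0.12, Igfbp2 0.77, Isg15 -0.18, Nrp1 -0.00010, Ntf3 0.60 and Synm 0.19. The values of Hpse2 and Igfbp2 are near the floor, with no UMIs in uninjured cells of that band. The cause was not tested for any of these. The settings on Rgs5, cycling cells and the band from 5 to under 20 cp10k were chosen after seeing the data.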

Other observations

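Further genes, chosen after their values were seen, differed in smooth muscle cells without belonging to the comparisons above. Has2, which makes hyaluronan, had 66 CPM in the injured library, against 4.99 CPM in the uninjured library, 13.2-fold higher (95% interval 7.45 to 25.9), and Cd44, a hyaluronan receptor, had 225 CPM in injured cells and 44.5 CPM in uninjured cells. In leukocytes Has2 had 16.5 and 2.12 CPM and Cd44 had 673 and 557 CPM in the injured and uninjured libraries, so Cd44 was higher there than in smooth muscle. Col5a3, a minor collagen chain, had 255 CPM in the injured library, against 29.1 CPM in the uninjured library, 8.76-fold higher (95% interval 6.88 to 11.3), with 43.5 and 17.2 CPM in injured and uninjured leukocytes. Tpm4, a tropomyosin of non-muscle cells, had 905 CPM in injured cells and 253 CPM in uninjured cells, in the opposite direction to Tpm2. Fabp4, a fatty acid binding protein of endothelium, had 2386 CPM in injured cells and 312 CPM in uninjured cells in smooth muscle and 7846 CPM in the injured library and 13408 CPM in the uninjured library in the endothelial class. Fabp4 was therefore higher in injured smooth muscle and lower in injured endothelial cells.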
